A study of Mus musculus with 6 samples.

Results

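Cytochrome c oxidase (COX, complex IV) is the last enzyme of the mitochondrial respiratory chain. The nuclear subunit genes described here were the 10 named by the rule of their list, Cox4i1, Cox5a, Cox5b, Cox6a1, Cox6a2, Cox6b1, Cox6c, Cox7a1, Cox7c and Cox8a, found by Ensembl ID among 48505 genes in the deposited tables. All 10 were found, and all 10 were among the 18566 genes with enough signal to test. The readout was N6-methyladenosine (m6A) RNA immunoprecipitation (IP) sequencing, in which fragmented RNA is bound by an anti-m6A antibody and the bound RNA is sequenced. The 3 nano-TiO2 libraries came from hearts of WT FVB/NJ fetuses whose dams inhaled nanoscale titanium dioxide (nano-TiO2) in a whole-body chamber, at a target of 12 mg/m3 for 360 minutes a day on 6 days from gestational day 5. The 3 sham libraries came from fetal hearts of the same strain and genotype whose dams were kept in filtered air. Dams were 10 weeks old, hearts were taken at gestational day 15, and each library was made from pooled hearts of both sexes. The labels do not give the number of litters in a pool, so p-values measure only the spread between these pools.

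COX takes electrons from cytochrome c, passes them to oxygen and pumps protons across the inner mitochondrial membrane. Its catalytic core is encoded by mitochondrial DNA, and a ring of small subunits encoded in the nucleus surrounds that core, stabilises it and adjusts its activity. Some nuclear subunits have paired isoforms: Cox6a2 and Cox7a1 are the forms of heart and skeletal muscle, while Cox6a1, Cox4i1, Cox6b1 and Cox8a are made in most tissues. In rodents the muscle forms gain on the ubiquitous ones in the heart around and after birth. m6A is a methyl mark placed on mRNA during transcription, and it is known mainly from long internal exons and the region around stop codons. COX subunit mRNAs are short, with several short exons.

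Reads per library numbered 20205024 to 28251706 in nano-TiO2 and 22151447 to 31523675 in sham. The deposited normalized values are whole reads over a size factor that is the same for every gene of a library, and they are called normalized reads here. The 4 most abundant genes of the table took 13.6% ± 5.09 of reads in nano-TiO2, against 25.95% ± 8.08 in sham (SD, n = 3 each). An IP level depends both on how much of an mRNA is present and on how much of it the antibody binds, and these cannot be told apart from IP libraries alone. In bulk hearts, fewer cells of a type and less RNA per cell cannot be told apart either. The tables pair no gene ID with a symbol, so the labelled tissue was not checked against cardiac or other cell type markers.

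All 10 genes had a lower mean IP level in nano-TiO2 than in sham hearts, and 6 of them passed the test across all genes, all 6 lower. The background for that count was 12.0% of all genes tested, which were called lower by the same rule, while 24.0% were called higher. The fold, nano-TiO2 over sham, ran between 0.506 in Cox7c and 0.759 in Cox5a with a median of 0.553. On the log2 scale of IP level the median change was -0.86 over the 10 genes, against 0.13 over all genes tested. A lower mean was found for 43.2% of all genes. All 3 nano-TiO2 libraries lay below all 3 sham libraries in 8 of the 10 genes, against 18.5% of all genes. Every one of the 10 was lowest in nano-TiO2 replicate 2 and highest in sham replicate 3.

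**Figure D1:**
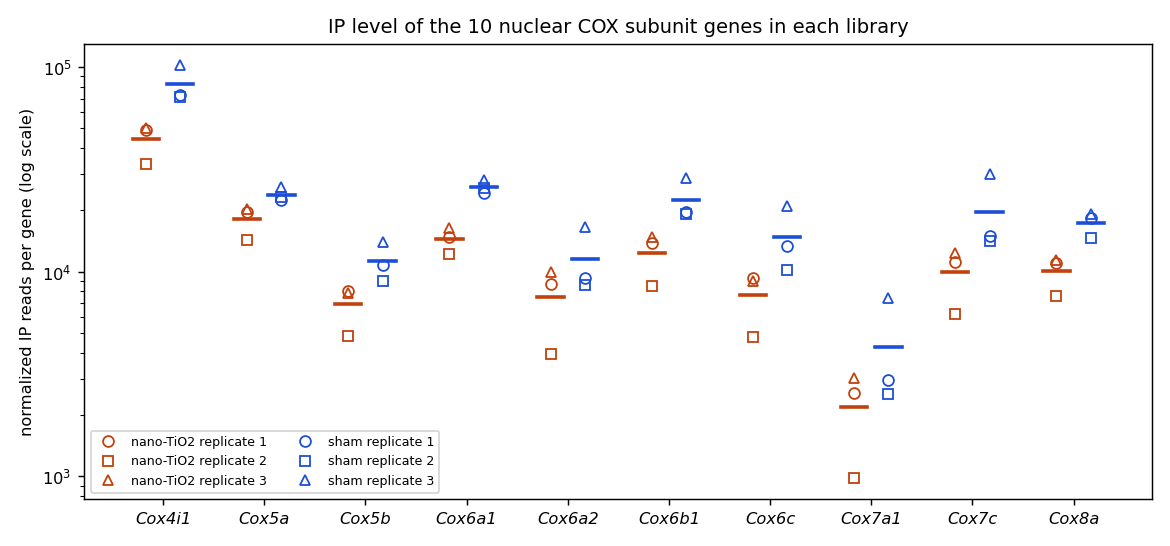
Normalized IP reads per gene (log axis) for the 10 COX subunit genes, 1 symbol per library and a bar at the mean of each group, nano-TiO2 on the left of each pair and sham on the right. The nano-TiO2 mean is below the sham mean in all 10 genes, the groups overlap in Cox6a2 and Cox7a1, and nano-TiO2 replicate 2 is the lowest point of every gene.

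Cox4i1 and Cox5a are the subunits that join the core first during assembly. Cox4i1 (ENSMUSG00000031818), a membrane-spanning subunit that binds ATP, had 49378, 33384 and 50488 normalized reads in the 3 nano-TiO2 libraries, against 72719, 71153 and 102451 in the 3 sham libraries. The groups did not overlap, and the highest nano-TiO2 library was well under the lowest sham library. Its IP level fell by 0.89 ± 0.22 on the log2 scale (SE; limma adjusted p = 0.0124). Cox5a (ENSMUSG00000000088), a matrix-side partner of Cox4i1, had 19625, 14236 and 20232 normalized reads in nano-TiO2, against 22317, 23083 and 25865 in sham. Here too the groups did not overlap, but the gap was narrow, and the log2 change of -0.41 ± 0.17 (SE) did not pass the test (limma adjusted p = 0.0863). Cox5a was the gene of the 10 with the smallest difference and the most even values, 1.82-fold between its highest and lowest library.

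Cox5b and Cox6b1 sit on opposite faces of the membrane. Cox5b (ENSMUSG00000061518), the zinc-binding subunit on the matrix side, had 8063, 4866 and 7887 normalized reads in nano-TiO2, against 10774, 8951 and 13900 in sham. It passed the test at a log2 change of -0.70 ± 0.23 (SE; limma adjusted p = 0.0428), with no overlap between groups. The call was lost without nano-TiO2 replicate 2 or 3 or sham replicate 1 or 3 (limma adjusted p of 0.0588 to 0.122). Cox6b1 (ENSMUSG00000036751), on the side of the intermembrane space where cytochrome c docks, had 13860, 8544 and 14701 normalized reads in nano-TiO2, against 19550, 19085 and 28644 in sham. The groups were apart, and its log2 change was -0.87 ± 0.24 (SE; limma adjusted p = 0.0213).

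Cox6c, Cox7c and Cox8a are small subunits that span the membrane. Cox6c (ENSMUSG00000014313) had 9305, 4785 and 8994 normalized reads in nano-TiO2, against 13380, 10212 and 20843 in sham, a log2 change of -0.94 ± 0.31 (SE; limma adjusted p = 0.0434). Cox7c (ENSMUSG00000017778) had 11186, 6239 and 12374 normalized reads in nano-TiO2, against 14931, 14143 and 29860 in sham. The call of Cox6c was lost without nano-TiO2 replicate 2 or 3 or sham replicate 1 or 3 (limma adjusted p of 0.0587 to 0.119). In both genes the groups were apart, and sham replicate 3 stood far above the other sham libraries. The mean of Cox7c was 0.506 of sham, the lowest ratio of the 10, but with that spread its log2 change of -0.96 ± 0.33 (SE) missed the threshold (limma adjusted p = 0.0517). It passed with the count tests on recovered reads (7 of 10 genes called by edgeR and by DESeq2, each the same 6 and Cox7c). Of all genes, edgeR called 12.3% lower and DESeq2 13.3%. Cox8a (ENSMUSG00000035885) had 11069, 7627 and 11363 normalized reads in nano-TiO2, against 18197, 14518 and 19060 in sham. The groups of Cox8a were apart with little spread in either, and its log2 change was -0.80 ± 0.19 (SE; limma adjusted p = 0.0116).

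The Cox6a pair sets a ubiquitous against a muscle isoform of the same subunit, which lies at the contact between the monomers of the COX dimer. Cox6a1 (ENSMUSG00000041697), the ubiquitous form, had 14679, 12233 and 16370 normalized reads in nano-TiO2, against 24312, 25718 and 27922 in sham. Its groups were apart with the smallest p of the 10, at a log2 change of -0.86 ± 0.15 (SE; limma adjusted p = 0.00329). Cox6a2 (ENSMUSG00000030785), the muscle form, had 8732, 3947 and 9942 normalized reads in nano-TiO2, against 9303, 8570 and 16557 in sham. These groups overlapped, since nano-TiO2 replicate 3 was above sham replicates 1 and 2, and the log2 change of -0.65 ± 0.36 (SE) did not pass (limma adjusted p = 0.197).

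Cox7a1 (ENSMUSG00000074218), the muscle form of a subunit that takes part in COX dimers and respiratory supercomplexes, was the most uneven of the 10. It had 2539, 979 and 3028 normalized reads in nano-TiO2, against 2950, 2538 and 7408 in sham. The groups overlapped, and the libraries of a group differed 3.09-fold within nano-TiO2 and 2.92-fold within sham. The log2 change of -0.96 ± 0.48 (SE) was as large as that of any other member but did not pass (limma adjusted p = 0.154). Of the 2 muscle isoforms, then, 0 passed the main limma test, at unadjusted p of 0.109 for Cox6a2 and 0.0791 for Cox7a1, and both edgeR and DESeq2 also called 0 of these 2. Limma with the replicate number as a block called both lower, against 12% of all genes, though the numbers do not pair the samples. A setting with nano-TiO2 replicate 2 and sham replicate 3 both left out was chosen after the values were seen. These were the lowest and the highest library of every member, so leaving them out had to shrink each difference. Cox6a2 and Cox7a1 then had log2 changes of 0.06 and 0.02, while Cox4i1, Cox6a1, Cox6b1 and Cox8a still passed. Cox5b and Cox6c, which are not muscle forms, lost their calls. Under that setting 14% of all genes were called lower.

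The count of genes called depended on how libraries were scaled. With TMM, the edgeR normalization, the same 6 genes passed as on the deposited scale, against 13.9% of all genes called lower. Scaled to equal totals of all reads, 0 of the 10 genes passed limma, where 0.91% of all genes were called lower and 43.1% higher. At an unadjusted p under 0.05 there were also 0 of the 10, against 9529 of all 18566 genes in either direction. Cox5a had a log2 change of 0.09 while the other 9 were below 0. The median over all genes was then 0.61. Relative to it the median of the 10 was -0.98, against -0.99 relative to the all-gene median of 0.13 on the deposited scale. Equal totals multiply each library by 1 constant, which shifts all genes nearly alike. These relative values could therefore hardly differ, and they are no test of stability. Scaled to equal totals outside the 4 most abundant genes, 3 passed (Cox4i1, Cox6a1 and Cox8a), against 5.45% of all genes called lower. Without sham replicate 3, on the deposited scale, the same 3 passed, against 9.33% of all genes called lower. Taking only windows averaging at least 10 normalized reads, 6 of the 10 passed, against 25.5% called lower of the 8877 genes with such windows.

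**Figure D2:**
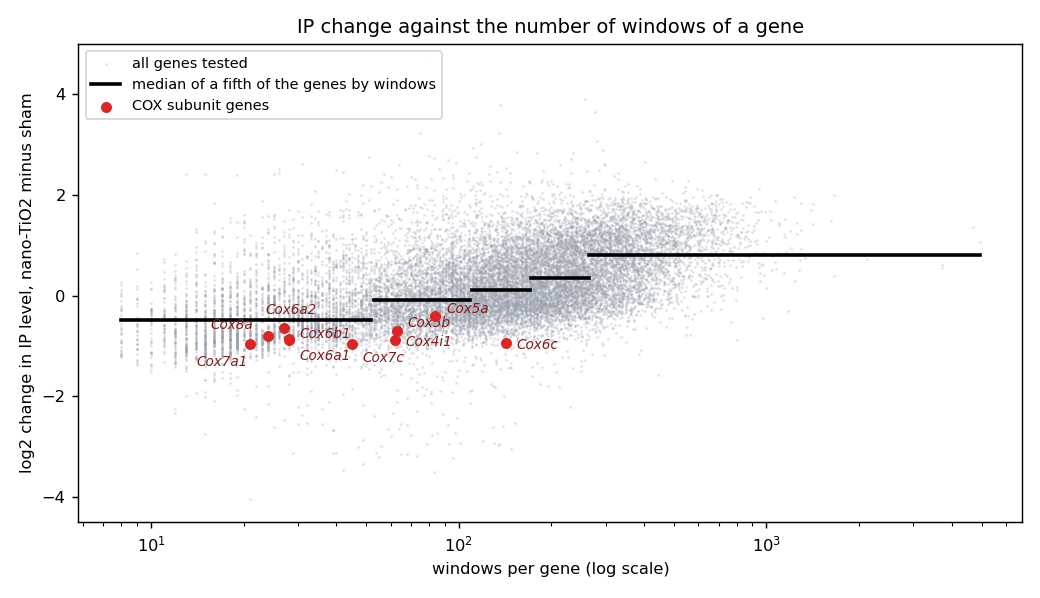
Log2 change of IP level (nano-TiO2 minus sham) against the number of windows per gene (log axis) for all 18566 genes tested, with black bars at the median of each of 5 groups of genes by windows and the 10 COX subunit genes in red. All 10 lie below the median of their group, and 6 of them are in the group with the fewest windows.

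The tables list each gene as windows that start about 25 nucleotides apart, so the number of windows stands for the length of the gene as listed. Change in IP level varied with it over all genes, which were put in 5 groups of near equal size by windows. The median log2 change was -0.48 in the shortest group (8 to 52 windows), -0.09 in the next (53 to 109), 0.12 in the third (110 to 171), 0.34 in the fourth (172 to 265) and 0.81 in genes with 266 windows or more. The COX genes are short: 6 were in the shortest group, 3 in the next (Cox4i1, Cox5a and Cox5b) and 1 in the third (Cox6c, with 142 windows). In the shortest group 34.0% of genes were called lower, and among the 10% of genes with the highest level, which held all 10 members, 42.6% were called lower with a median log2 change of -0.41. Set against those shares, 6 called of 10 stands less far from its background than against 12.0%. With the trend on length removed from each library, 2 of the 10 passed, Cox4i1 and Cox6a1, a share near the 12.8% of all genes called lower under that setting, and the median of the 10 relative to all genes was -0.43.

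Levels per length also differed among the genes. Per window, over windows averaging at least 10 normalized reads, Cox4i1 was highest at 1480 ± 319 normalized reads per window in nano-TiO2, against 2736 ± 588 in sham (SD, 3 libraries each). It was above Cox6a1, the next gene, in 6 of 6 libraries. Cox6a1 had 848 ± 122 in nano-TiO2 and 1528 ± 107 in sham, and Cox6b1 had 773 ± 209 and 1401 ± 337 in the same order of groups. These neighbours in the order did not separate, with Cox6a1 higher in 4 of 6 libraries. Next came Cox5a, Cox7c, Cox8a and Cox6c, whose means over the 6 libraries lay between 908 and 658 normalized reads per window, and each was above the next in 5 of 6 libraries except Cox7c over Cox8a, which held in 2 of 6. Cox6a2 followed at 452, below Cox6c and above Cox5b (291) in 6 of 6 libraries each. Cox7a1 was lowest at 181 ± 89.1 in nano-TiO2 and 357 ± 224 in sham, and it was below Cox5b in 5 of 6 libraries.

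The muscle share of the Cox6a pair was taken as Cox6a2 over Cox6a1 plus Cox6a2, each per listed window of the gene. Unlike the levels above, this counts windows without signal too. On the normalized scale it was 38.2%, 25.1% and 38.6% in nano-TiO2, against 28.4%, 25.7% and 38.1% in sham. Values near 38% and near 25% occurred in both groups. The difference of 3.23 percentage points was within the spread (exact two-sided permutation test, p = 0.8; adjusted p = 0.96 over the 6 shares tested), and 3 against 3 libraries can give no p below 0.1. With 1 library left out the difference ran from 0.712 points (without sham replicate 2) to 7.67 points (without nano-TiO2 replicate 2, exact permutation p = 0.2). The size of the share depended on the denominator. Over windows averaging at least 10 its mean was 28.7% in nano-TiO2 and 25.8% in sham (exact permutation p = 0.8). Of summed reads it was 33.2% and 30.0% (exact permutation p = 0.8). On the adjusted scale, the second scale the authors deposited, the share was 31.8%, 29.9% and 34.2% in nano-TiO2 and 32.3%, 30.5% and 34.6% in sham, a difference of -0.47 percentage points (exact permutation p = 0.7; adjusted p = 0.96). The libraries were closer together on that scale, and the groups overlapped throughout.

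**Figure D3:**
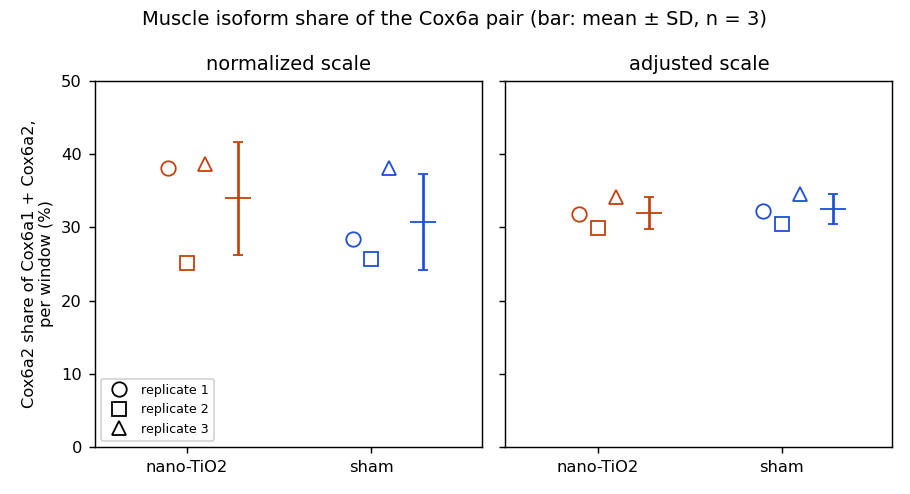
Share of the muscle isoform Cox6a2 in the Cox6a pair per window (percent), 1 symbol per library with mean ± SD (n = 3), on the normalized scale (left panel) and the adjusted scale (right panel), nano-TiO2 left of sham in each. The groups overlap on both scales, at 34.0 ± 7.70 in nano-TiO2 and 30.7 ± 6.51 in sham on the normalized scale.

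Cox6a2 and Cox7a1 together made 13.1%, 8.72% and 14.2% of the summed level per listed window of the 10 genes in nano-TiO2, against 10.0%, 9.54% and 14.3% in sham. The difference of 0.72 percentage points was not beyond the spread (exact permutation p = 1.0, adjusted p = 1.0), and its sign changed when nano-TiO2 replicate 3 or sham replicate 2 was left out. On the adjusted scale the difference was -0.08 percentage points (exact permutation p = 0.8, adjusted p = 0.96). On the normalized scale, over windows averaging at least 10, the 2 muscle forms made 8.33% in nano-TiO2 and 7.96% in sham in mean. Of summed reads they made 7.01% and 6.56% (exact permutation p = 0.9). All 10 genes together made 0.658%, 0.487% and 0.683% of all reads in nano-TiO2, against 0.751%, 0.573% and 0.977% in sham (exact permutation p = 0.4, adjusted p = 0.96). Of reads outside the 4 most abundant genes they made 0.803%, 0.529% and 0.802% in nano-TiO2, against 0.963%, 0.885% and 1.23% in sham, where the groups did not overlap (exact permutation p = 0.1, the smallest possible). On the adjusted scale that share was 0.844%, 0.721% and 0.837% in nano-TiO2, against 0.945%, 0.827% and 1.03% in sham, and the groups overlapped (exact permutation p = 0.3). As a share of the library's reads, 1 of the 10 genes, Cox6a1, had all nano-TiO2 libraries below all sham libraries, against 2.12% of all genes, and Cox5a was 1.06-fold higher in mean in nano-TiO2.

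Along the genes, the difference was spread over the windows with signal. Of the 202 windows of these genes that averaged at least 10 normalized reads, 111 were called lower in nano-TiO2 (54.95%), against 7.32% of all 250317 windows tested. None were called higher, against 3.88% of all windows. At an unadjusted p under 0.05 there were 158 of the 202, against 67543 of all 250317 windows in either direction (all tests by limma). The mean was lower in 201 of the 202. All 17 tested windows of Cox6a1 and all 17 of Cox8a were called, 27 of 30 in Cox4i1, 14 of 16 in Cox6b1, 15 of 17 in Cox6c, 10 of 18 in Cox7c and 11 of 31 in Cox5b. In Cox5a, Cox6a2 and Cox7a1, 0 were called. At an unadjusted p under 0.05 there were 7 of 23, 9 of 21 and 11 of 12 windows, and the count for Cox5a was near the share over all windows. The exception in direction was a Cox5b window starting at nucleotide 1401 of the gene as listed, with a mean of 45.0 normalized reads in nano-TiO2, against 38.0 in sham (limma adjusted p = 0.703). Scaled by TMM, 13 of the 202 windows were called lower, against 2.83% of all windows called lower and 5.48% higher. Among windows averaging at least 50 normalized reads, 34.8% of all 57169 were called lower and 4.31% higher. At that level all 17 windows of Cox6a1, 17 of Cox8a and 15 of Cox6b1 were called, and 27 of 28 in Cox4i1. Calls were 14 of 17 in Cox6c, 14 of 24 in Cox5b, 10 of 17 in Cox7c and 2 of 23 in Cox5a. They were 0 of 21 in Cox6a2 and 0 of 10 in Cox7a1. Neighbouring windows share fragments, so they are not independent.

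**Figure D4:**
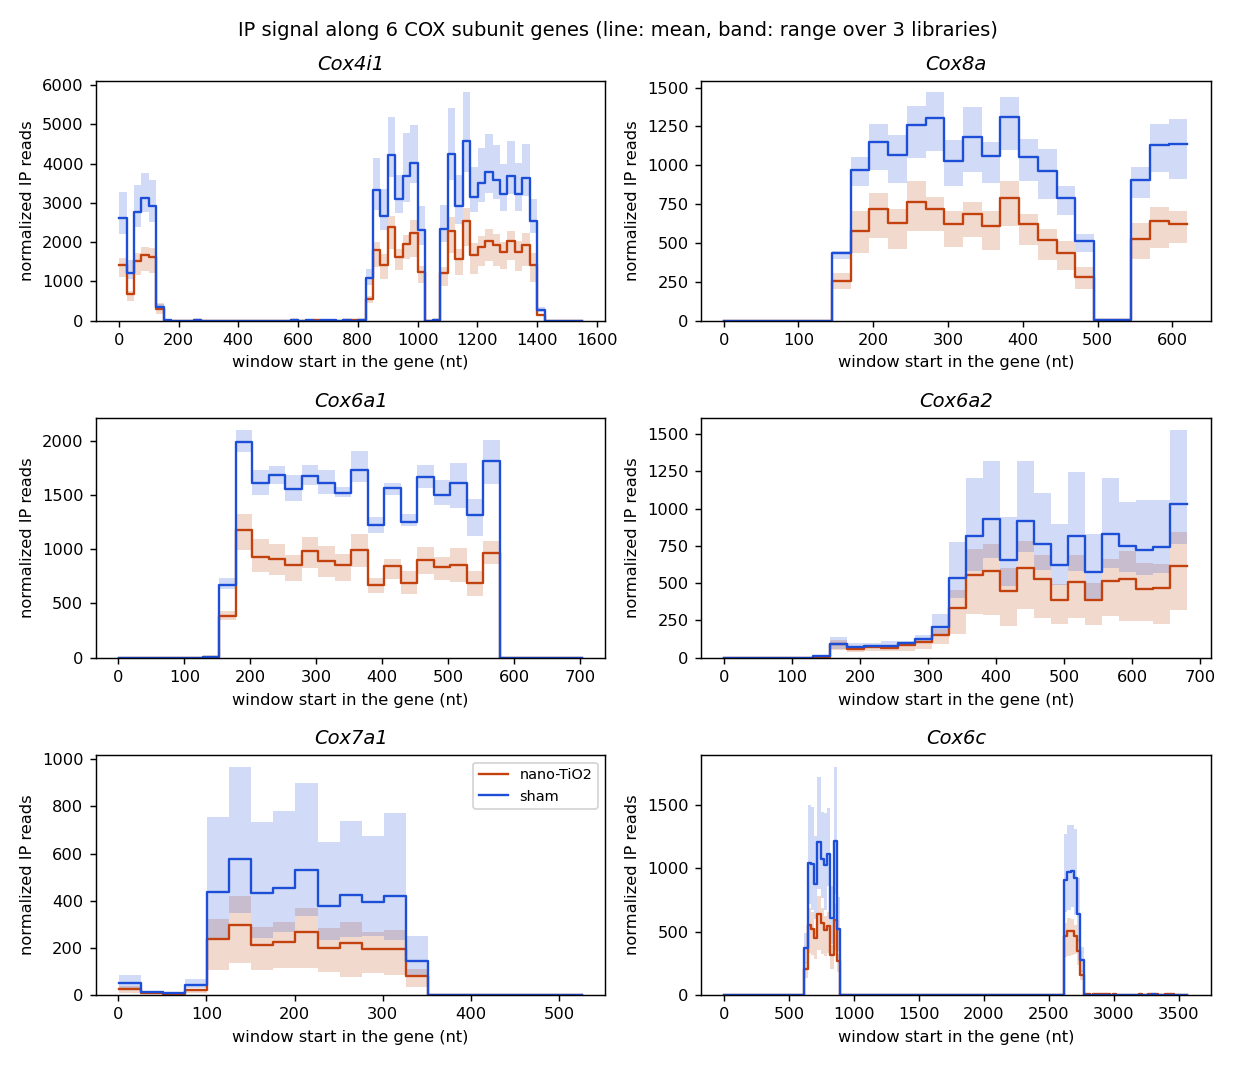
Normalized IP reads per window against the window's start within the gene (nucleotides) in 6 of the genes, with a line at the mean and a band over the range of the 3 nano-TiO2 (orange) and 3 sham (blue) libraries. The nano-TiO2 line runs below the sham line along the blocks of signal, with bands apart over most windows of Cox4i1, Cox8a and Cox6a1 and overlapping in Cox6a2 and Cox7a1.

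The window with the highest mean showed the same order in each gene. In Cox4i1 it started at nucleotide 1151, with 2531 ± 536 normalized reads in nano-TiO2, against 4585 ± 1083 in sham (SD, n = 3 each; limma adjusted p = 0.0336). In Cox6a1 it started at nucleotide 178, with 1175 ± 171 in nano-TiO2, against 1985 ± 107 in sham (limma adjusted p = 0.0208). In Cox7a1 it started at nucleotide 126, with 296 ± 146 in nano-TiO2, against 578 ± 340 in sham (limma adjusted p = 0.103). Tested for a window that moved differently from its gene, 0 of the 202 windows passed limma's diffSplice, against 0.0465% of windows in all genes. At an unadjusted p under 0.05 there were 2 (1 in Cox5a and 1 in Cox5b), against 8135 of 249423 windows in all genes. The highest window was 1.25 times (Cox6c) to 1.50 times (Cox6a2 and Cox4i1) the median of the tested windows in the genes other than Cox5b, where it was 2.19 times.

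Windows with a mean under 10 lay between these blocks and at the ends of the genes. They held little: 0.0192% of the reads of Cox6b1 at the low end and 0.602% of those of Cox6c at the high end. In Cox6c the 125 such windows together had 85.9, 94.3 and 100.7 normalized reads in nano-TiO2, against 40.5, 47.1 and 37.8 in sham, or 77, 114 and 125 reads against 45, 43 and 28. These weak windows were thus 2.24-fold higher in mean in nano-TiO2 without overlap, while the 17 windows with signal summed to 9219, 4690 and 8893 in nano-TiO2, against 13339, 10165 and 20805 in sham. Cox6c was the member in which weak and strong windows went opposite ways without overlap, and it is named here after its values were seen. The share of all genes that do so was not counted. Over windows of all genes, the median log2 change was 0.24 at a mean of at least 1 normalized read. It was -0.13 at a mean of at least 10 and -0.42 at a mean of at least 50. In Cox7c the weak windows had 43.7 normalized reads in mean in nano-TiO2 and 43.7 in sham. In Cox6a2 and Cox7a1 the normalized reads of the weak windows were lower in every nano-TiO2 library than in any sham library. Their means were 6.85 and 8.14 in nano-TiO2, against 11.9 and 19.6 in sham. These are few reads. Cox6a2 had 6, 7 and 10 reads in nano-TiO2 against 12, 8 and 12 in sham, which overlap, all in the window starting at nucleotide 131. Cox7a1 had 8, 9 and 10 reads against 18, 13 and 21. In the other 7 genes the groups overlapped. The weak windows were not tested as a group.

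The adjusted scale differs from the normalized one by 1 factor per gene and library, and no header or label states what the factor was made from. For the 10 COX genes most of the difference between groups lay in that factor. The factor, normalized over adjusted, was called lower in nano-TiO2 in 7 of 10 genes (limma across 13489 genes), against a background of 19.0% of genes called lower (16.0% higher), with a median log2 change of -0.65 in the 10, against -0.16 over all genes. Its groups did not overlap in 8 of 10 genes, against 29.9% of all genes. For Cox6a1 the factor was 0.770, 0.675 and 0.818 in nano-TiO2, against 1.16, 1.33 and 1.25 in sham, a log2 change of -0.73 ± 0.13 (SE; limma adjusted p = 0.00588). For Cox8a it was 0.838, 0.737 and 0.829 in nano-TiO2, against 1.20, 1.23 and 1.16 in sham (log2 change -0.58 ± 0.11, limma adjusted p = 0.00773). Both genes had factors under 1 in every nano-TiO2 library and over 1 in every sham library. The same held in Cox4i1, Cox5a, Cox5b, Cox6b1, Cox6c and Cox7c. Since the factor averages about 1 in each gene, this mostly restates that the groups did not overlap. In Cox7a1 the factor of nano-TiO2 replicate 1, at 1.02, was above that of sham replicates 1 and 2, at 0.981 and 1.00, and it did not pass (limma adjusted p = 0.117). Centred on the median factor of each library, 3 genes passed, Cox6a1, Cox6b1 and Cox8a, against 10.5% of all genes called lower and 18.4% higher.

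On the adjusted scale itself, 0 of the 10 genes passed limma, and the background was 0.0% of 19361 genes (2 of the 10 and 3592 of all genes had an unadjusted p under 0.05; no count test was run on these scores). All 10 still had a lower mean in nano-TiO2, against 30.6% of all genes, with log2 changes of -0.34 in Cox6c to -0.08 in Cox5a and a median of -0.20, against 0.17 over all genes. The groups overlapped in all 10, and all nano-TiO2 libraries lay below all sham libraries in 2.96% of all genes. Cox4i1 had adjusted scores of 62277, 55661 and 56171 in nano-TiO2, against 69001, 61474 and 68426 in sham (log2 change -0.19 ± 0.07, limma adjusted p = 0.219). Cox6c had 10111, 8037 and 10339 in nano-TiO2, against 13212, 9246 and 13919 in sham (log2 change -0.34 ± 0.15, limma adjusted p = 0.259). In each, sham replicate 2 lay within the range of the nano-TiO2 libraries. Without sham replicate 2, these 2 genes passed, both lower, against 1.38% of all genes called lower and 8.32% higher. Of the 202 windows, 0 passed on the adjusted scale (33 at an unadjusted p under 0.05), against 0.00316% of all windows.

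**Figure D5:**
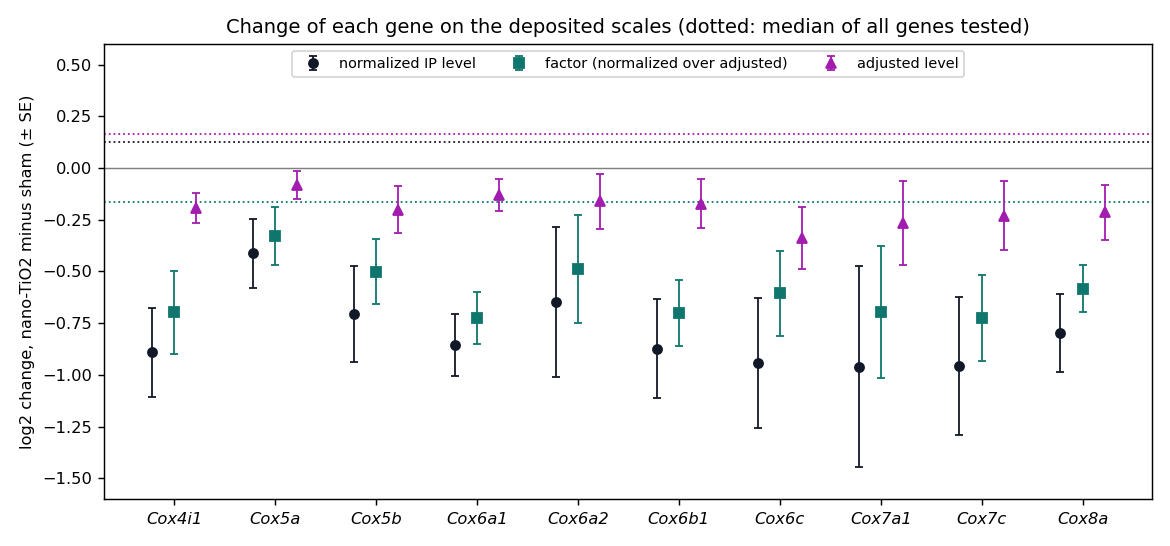
Log2 change, nano-TiO2 minus sham, with its SE for each gene on 3 scales: the normalized IP level (circles), the factor between the deposited scales (squares) and the adjusted level (triangles), with dotted lines at the median of all genes tested on each scale. All 30 points are below 0, and the adjusted changes are the smallest of the 3 in each gene.

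Promoters are shown here for 2 ubiquitous forms that passed the test and hold a motif searched for (Cox6a1 and Cox6b1) and for a muscle form that did not pass (Cox7a1). Of the 10 genes, 7 matched by symbol in the RefSeq promoter table (GRCm38.p6). The 250 bases before the start of Cox6a1, Cox6b1 and Cox7a1 are printed 5′ to 3′ on the gene's strand, with capitals at matches to the NRF1 motif (GCGC, any 2 bases, GCGC; nuclear respiratory factor 1 regulates many respiratory chain genes) or to CCGGAAG (ETS family, which includes NRF2/GABP), searched on both strands.
Cox6a1 (chr5:115348959-115349208, minus strand): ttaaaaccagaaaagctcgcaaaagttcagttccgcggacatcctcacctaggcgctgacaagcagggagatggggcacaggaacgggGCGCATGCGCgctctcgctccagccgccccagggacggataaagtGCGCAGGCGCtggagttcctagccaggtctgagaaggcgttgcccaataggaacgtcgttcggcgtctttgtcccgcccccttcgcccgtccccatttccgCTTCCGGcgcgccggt
Cox6b1 (chr7:30626115-30626364, minus strand): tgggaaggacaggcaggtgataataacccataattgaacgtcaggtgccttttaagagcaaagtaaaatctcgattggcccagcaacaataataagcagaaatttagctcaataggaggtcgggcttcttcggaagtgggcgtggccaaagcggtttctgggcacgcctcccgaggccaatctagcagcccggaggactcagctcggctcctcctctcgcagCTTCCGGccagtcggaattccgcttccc
Cox7a1 (chr7:30183921-30184170, plus strand): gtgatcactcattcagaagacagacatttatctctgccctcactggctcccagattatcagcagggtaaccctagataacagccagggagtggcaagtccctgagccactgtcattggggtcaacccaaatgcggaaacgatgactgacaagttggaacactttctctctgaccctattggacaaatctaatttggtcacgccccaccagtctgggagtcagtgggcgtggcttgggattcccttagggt
Cox6a1 held 2 matches to the NRF1 motif, starting 162 and 117 bases before the start, and 1 to the ETS motif at 16 bases before it, and Cox6b1 held 1 ETS match at 28 bases before it. In Cox7a1, and in the windows of Cox5a, Cox5b, Cox7c and Cox8a, which are not printed, these letters do not occur. Over the 7 matched members, 1 held the NRF1 motif and 2 the ETS motif, against 4.98% and 6.91% of all 32851 promoters in the table. Matches to CAGCTG (an E-box) and to TATAAA were found in 0 of 7, against 13.0% and 12.4% of all promoters. G and C made 62.8% of the window of Cox6a1, 54% of that of Cox6b1, 52.8% of that of Cox8a, another ubiquitous form, and 51.2% of that of the muscle form Cox7a1, against a median of 52.4% over all promoters. The remaining matched members had 63.2% (Cox5a), 62.4% (Cox5b) and 46.4% (Cox7c).

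Across the 6 libraries, the mean centred log2 profile of the 10 genes (high in sham replicate 3, low in nano-TiO2 replicate 2) was shared by many genes. Among 12217 other genes averaging at least 100 normalized reads, 869 (7.11%) had a Pearson r above 0.9 with it. The closest by this measure were ENSMUSG00000074092 and ENSMUSG00000044894, both with r = 0.999 over 6 libraries. The points of these correlations share libraries, size factors and group, so they are a description only.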

How the data were processed

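The samples were 6 anti-m6A IP libraries of pooled fetal hearts. Input libraries, which the labels' protocols describe, were not used here. Per the labels' protocols, 3 µg of RNA was cut to roughly 250 to 350 nucleotides, bound with 5 µg of antibody and amplified over 10 plus 8 PCR cycles, so reads are not independent molecules. HISAT2 2.2.1, Salmon 1.5.2, DESeq2 1.34.0 and GRCm39 are named, with no role or order, per the submitters' processing notes. Handling of reads shared with paralogs or pseudogenes is not stated.

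The authors deposited IP signal per window as a normalized table; 100% of its values were whole multiples of 1 step per library, within 0.0001, so reads could be recovered. The adjusted table, also deposited, consists of whole-number scores equal to the normalized values over 1 factor per gene and library, rounded, with 0 exceptions in 162014 pairs of gene and library. The other deposited table equalled the normalized one and was left out.

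A gene's value was the sum over its windows. Features averaging at least 10 over the libraries were tested two-sided on log2(value + 1) with the trended fit of limma 3.58.1 (R 4.3.3), Benjamini-Hochberg adjusted at 0.05 over everything tested; this scale understates changes of low features. The design foresaw counts or normalized values; limma was used on the normalized ones, and edgeR 4.0.16 and DESeq2 1.42.0 on recovered reads were alternatives. For the factor, recovered in 13489 genes, the trend followed the gene's mean IP level, since the factor averages about 1 in each gene. Shares were compared with exact permutation tests in SciPy 1.17.1. Python 3.11.15, NumPy 2.4.6, pandas 2.3.3 and matplotlib 3.10.9 were used. The main limma fits per gene (normalized, adjusted and factor) and per normalized window, diffSplice and edgeR were tested on simulated data. DESeq2, the adjusted windows, the alternative settings and the permutation tests were not.

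Members, lists, tests and the rule for named genes (all 10 members, the genes most like their profile, and each member's highest window) were chosen with earlier results of these data known. Symbols of members came with their list. The lists of other COX subunits, assembly factors, other respiratory complexes and cell type markers were fixed by symbol, no table at hand pairs symbols with these IDs, and they were not analysed here. Same-numbered libraries of the 2 groups deviated from their group means with correlations of -0.365, 0.177 and 0.024, so the numbers were not taken as pairs.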

Additional observations from a re-analysis of the deposited data

How the results depend on the processing

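The 10 genes were lower in mean IP level under every gene-level setting run except 3. Cox5a had a log2 change of 0.085 with equal totals and 0.13 with quantile normalization. With both nano-TiO2 replicate 2 and sham replicate 3 left out (added after seeing the data), IP changes were 0.061 in Cox6a2 and 0.019 in Cox7a1, and adjusted changes were 0.063 in Cox6a2, 0.037 in Cox6b1, 0.096 in Cox7a1, 0.063 in Cox7c and 0.011 in Cox8a. Genes called in IP level, 6 on the deposited scale, were 6 with TMM, 0 with equal totals, 0 with quantile normalization, 2 with the length trend removed, 3 when totals were matched after leaving out the 4 most abundant genes, 4 with both libraries left out or with array weights, and 3 (without sham replicate 3) to 7 (without sham replicate 2) with 1 library left out. Of all genes, 13.9% were called lower with TMM, 15.2% with quantile normalization and 14% with both libraries left out. The share was 18.6% with array weights and 8.45% to 11.5% with 1 library left out. On the adjusted scale 0 were called, but 2 with array weights and 0 to 2 with 1 library left out (2 without sham replicate 2). Of all genes, 3.43% were called lower there with array weights and 1.38% without sham replicate 2. For the factor, 7 were called, 3 when centred on the median and 3 to 5 with 1 library left out. Of all genes, 10.5% were called lower when centred and 7.19% to 20.1% with 1 library left out. Of the 202 windows, 111 were called on the deposited scale, 13 with TMM, and 27 to 104 with 1 library left out (27 without sham replicate 3, 28 when sham replicate 1 was dropped, 38 and 56 when nano-TiO2 replicates 2 and 1 were). Of all windows, 7.32% were called lower on the deposited scale and 2.83% with TMM. With 1 library left out the share of all windows called lower was 2.93% (without sham replicate 1) to 5.77% (without nano-TiO2 replicate 2), and 4.63% without sham replicate 3. The causes were not tested.

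Differences in share changed sign with 1 library left out: -0.37 to 2.36 percentage points for the muscle share of the 10 genes, -0.75 to 0.46 for it on the adjusted scale and -1.58 to 0.61 for the Cox6a pair on the adjusted scale. With the replicate number as a block, 9 genes were called in IP level (all but Cox5a, so both muscle forms), 0 on the adjusted scale, 8 for the factor and 152 windows. Of all genes 12% were then called lower in IP level and 12.2% for the factor, and 8.54% of all windows. The numbers do not pair the samples.

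Over all genes, calls split 4450 higher and 2226 lower on the deposited scale, 8005 and 169 with equal totals, 6300 and 1012 when totals were matched without the 4 most abundant genes, 3081 and 2815 with quantile normalization and 2115 and 2369 with the length trend removed; under these scalings all-gene medians ran from -0.05 to 0.61. Summing windows of at least 10 called 829 genes higher and 2260 lower of 8877 (all-gene median -0.27), and taking their median 733 and 2085. On the adjusted scale 0 genes were called, 1611 higher and 267 lower without sham replicate 2 and 5011 with array weights. Factor calls split 2154 higher and 2560 lower, and 2487 and 1416 when centred on the median; they were 4714 in all, and 2128 to 4964 with 1 library left out; window calls were 28052, and 12114 to 21647. Window calls split 9718 higher and 18334 lower, 13728 and 7087 with TMM. Windows called relative to their gene were 116, and 10 with a mean of at least 50. Adjusted windows called were 8, and 0 to 125 over the alternatives. With 3 libraries a group, small differences cannot be resolved.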
